A study of Mus musculus with 4 samples.

Results

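Genes that make, move and store cholesterol were followed in single liver cells of mice fed a control diet or a diet without methionine and choline. The set holds 31 gene symbols, matched by name in the gene column of the count files, out of 27998 genes shared by the 4 libraries. They stand on 32 gene identifiers, because Apoc2 occurs on 2, of which the annotated protein-coding one was used. By role the members are 15 enzymes of cholesterol synthesis, 3 genes that control or carry sterols under the factor SREBP2 (Srebf2, Insig1, Stard4), 10 targets of the liver X receptors (Abca1, Abcg1, Mylip, Apoe, Apoc2, Pltp, Lpcat3, Srebf1, Scd1, Scd2), 1 such receptor (Nr1h2) and 2 genes of cholesteryl ester turnover (Soat1, Nceh1). The label of the set also names uptake, which the members touch only through Mylip, whose product sends lipoprotein receptors to degradation, and through Apoe, a ligand of lipoprotein receptors. The rule that lists them uses names and no measured value.

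Cells hold their cholesterol steady by opposed programmes. When sterols in the endoplasmic reticulum fall, SREBP2 is freed from its anchor, which includes INSIG proteins, and turns on the synthesis enzymes; when sterols are plentiful, oxysterols activate the liver X receptors (LXR), which raise export through ABCA1 and ABCG1 and secretion of apolipoprotein E. Monocytes and macrophages that load lipid in liver or artery store the excess as cholesteryl ester, made by SOAT1 and split again by neutral hydrolases such as NCEH1.

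The mice were male wild-type C57BL/6 animals, 8 weeks old and of matched weight when bought, with no transgene or deletion named. For 6 weeks they ate either a normal control diet, here NCD, or food deficient in methionine and choline, here MCD, which causes fat accumulation and inflammation in the liver, and each diet has 2 libraries. Cells were sorted as 7AAD-negative, CD45+ and Ly6G- with intermediate CD11b, and the sources disagree on whether F4/80 was high or low. Nothing in the labels says whether a library is 1 mouse or a pool, so p-values measure only the spread between these libraries.

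The 2 libraries of a diet differed by more than sampling noise, so each counts as 1 sample. Sequencing gave 7518597 and 7428431 UMIs (counted transcript molecules) on NCD and 32975974 and 37772284 UMIs on MCD. The median retained cell had 2173 and 2253.5 UMIs on NCD against 12038 and 12300 on MCD, and barcodes with over 10% mitochondrial UMIs made up 37.2% and 33.6% on NCD against 11.6% and 9.44% on MCD. Depth and cell quality thus moved with diet in every library, and their part in the differences below was not tested beyond the alternatives given. Of 12306 barcodes 9609 cells were kept, 4 to 12 barcodes were shared by any pair of libraries, and doublets were not removed. Clusters were named by likeness of transcripts, and the sort also held cDC2-like dendritic cells, endothelial-like cells and NK-like cells. The main cells are the union of 5 monocyte-like and macrophage-like classes, which held 623 and 677 NCD cells and 1366 and 1428 MCD cells. Its makeup differed by diet. Ly6Chi-like monocytes numbered 441 and 480 on NCD against 725 and 869 on MCD, and Ly6Clo-like monocytes 108 and 144 against 73 and 120. C1q macrophage-like cells numbered 25 and 12 against 456 and 386, Kupffer-like cells 48 and 40 against 1 and 0, and lipid-associated macrophage-like cells 1 and 1 against 111 and 53. A change of makeup and a change within cells cannot be told apart from the union alone, so the monocyte classes are also given separately.

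In the union, 8 members were higher on MCD and 4 were lower, and neither programme moved as a block. Higher were the enzymes Fdps, Mvd and Mvk, the LXR targets Apoe, Lpcat3 and Srebf1, the receptor Nr1h2 and the ester hydrolase Nceh1, with log2 fold changes (MCD over NCD) from 0.68 to 1.62. Lower were the enzyme Idi1, the SREBP2 brake Insig1, the exporter Abcg1 and the ester-forming Soat1, with log2 fold changes from -0.81 to -0.46. The test was edgeR's quasi-likelihood F test on UMIs summed per library, with Benjamini-Hochberg adjustment over 11084 genes and a threshold of 0.05. Of all genes tested 20% were called higher and 17.5% lower, against 26.7% and 13.3% of the 30 members tested, so the members' counts lie near those of any gene in these cells. Apoc2 was under the filter on low counts, with 0 and 3 UMIs on NCD and 8 and 11 on MCD.

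The contrast of the programmes gave mixed counts on both sides. Of the 18 genes on the SREBP2 side, 3 were higher, 2 lower and 13 did not pass, with a median log2 fold change of 0.30. Of the 10 LXR targets, 3 were higher, 1 lower, 5 did not pass and 1 was not tested, with a median of -0.12, and the median of all genes tested was 0.05. Scaling by library totals in place of TMM moved the median of all genes to 0.38, that of the SREBP2 side to 0.63 and that of the LXR targets to 0.21. Neither median was stable. That of the SREBP2 side was 0.12 and 0.08 without MCD replicate 1 and 2, 0.02 after thinning, -0.06 at clustering resolution 0.5 and -0.45 with equal weight to each class. That of the LXR targets turned to 0.08 without NCD replicate 2, 0.19 without MCD replicate 2 and 0.20 with a trend in transcript GC content removed. The filter was run anew in each setting, so the members behind a median can differ. Genes tested numbered 11084 in the main fit, 8490 and 8552 without MCD replicate 1 and 2, 7916 after thinning and 3951 with equal weight. Loss of members and change of their values were not told apart. Resolution 0.5 also moved most NCD cDC2-like cells into the union. Scaling by library totals also changed the split of all calls from 2221 higher and 1938 lower to 3752 and 1061. With only the 2 monocyte classes kept, a choice made after seeing the data, the medians were -0.15 on the SREBP2 side and -0.34 for the LXR targets, and Apoe alone among the LXR targets was still called higher.

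**Figure D1:**
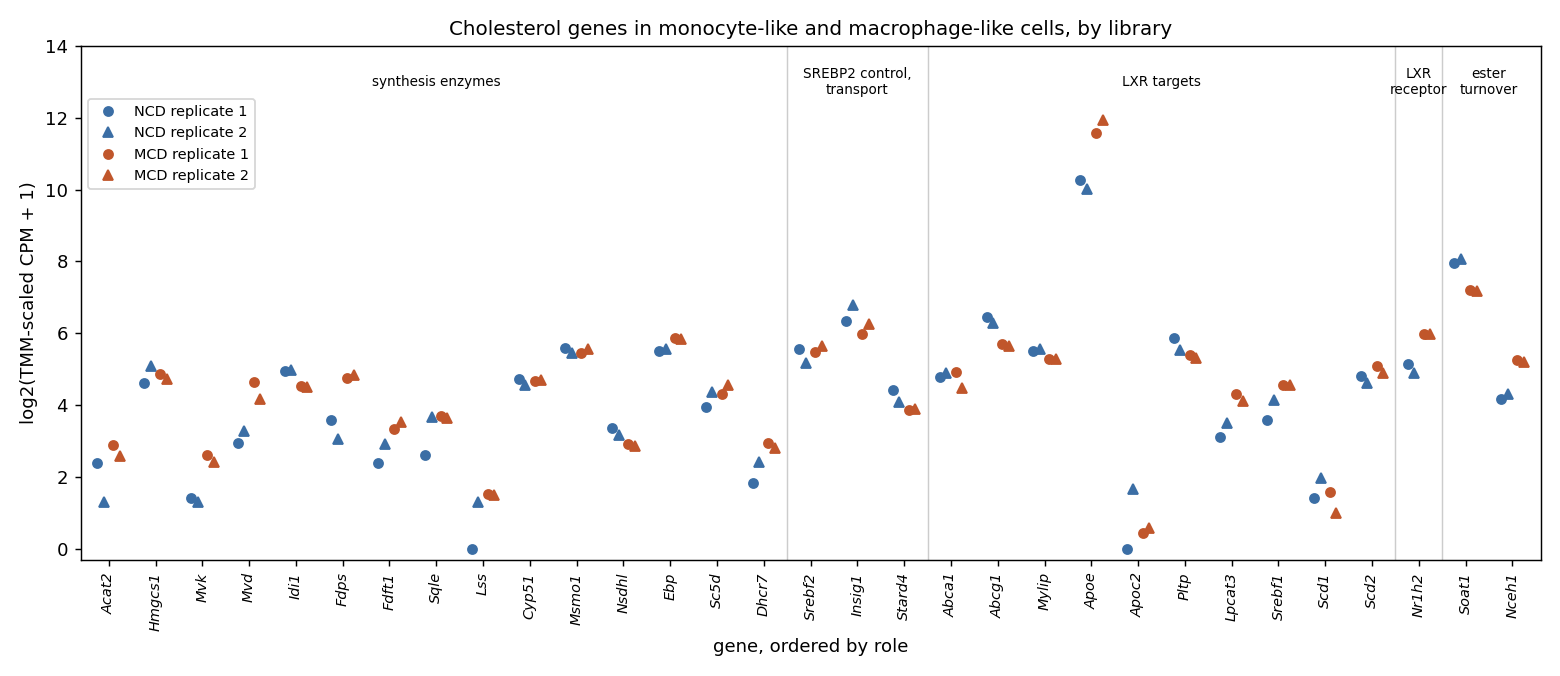
Level of each of the 31 cholesterol genes in the union of 5 monocyte-like and macrophage-like classes, as log2 of TMM-scaled CPM plus 1, 1 point per library (blue NCD, orange MCD, circles replicate 1, triangles replicate 2), with genes ordered by role. Apoe, Fdps, Nr1h2 and Nceh1 lie higher in both MCD libraries and Soat1 and Abcg1 lower, while Cyp51, Msmo1 and Hmgcs1 overlap.

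Among the synthesis enzymes, the steps of the early and middle pathway moved in different directions. Fdps (ENSMUSG00000059743, GRCm38 chromosome 3, 89093588 to 89101959), which makes farnesyl diphosphate, the branch point to sterols and prenyl groups, measured 11 and 7.32 CPM in the NCD libraries and 26.2 and 27.7 CPM in the MCD libraries. CPM here is each gene's share of the summed cells' UMIs, scaled to a common library size by TMM. Both MCD libraries lay above both NCD libraries, with a log2 fold change of 1.57 ± 0.24 (SE) and an adjusted p of 0.00065. This call held in 18 of 18 alternatives, although coarser clustering at resolution 0.5 lowered the log2 fold change to 0.61. At that resolution the union also took in most NCD cDC2-like cells, with 1268 and 1169 NCD cells in place of 623 and 677. On MCD 257 and 370 cDC2-like cells stayed outside it.

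Mvd (ENSMUSG00000006517, chromosome 8, 122433601 to 122443422), which decarboxylates mevalonate diphosphate just before the isoprene units form, measured 6.78 and 8.79 CPM on NCD and 23.8 and 17.1 CPM on MCD. The diets did not overlap, and the log2 fold change was 1.38 ± 0.33 (adjusted p = 0.00787). Its call ended on leaving out NCD replicate 1 (1.25, adjusted p = 0.109) or NCD replicate 2 (1.61, adjusted p = 0.089) and on removal of a trend with the GC content of the last 600 bases of transcripts (0.55, adjusted p = 0.261). Mvk, mevalonate kinase, measured 1.69 and 1.46 CPM on NCD, from 2 UMIs in each library, against 5.10 and 4.33 CPM on MCD. Its log2 fold change of 1.58 ± 0.55 (adjusted p = 0.0433) passed in 3 of 15 alternatives, and the plain ratio of UMIs was 3.79 with a 95% counting interval of 1.46 to 14.1. Without NCD replicate 1 or 2 its adjusted p was 0.117 and 0.200.

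Idi1 (ENSMUSG00000058258, chromosome 13, 8885501 to 8892451), which interconverts the 2 isoprene units that Fdps joins, went the other way. It measured 29.7 and 30.8 CPM on NCD and 22.0 and 21.9 CPM on MCD, with no overlap and a log2 fold change of -0.46 ± 0.17 (adjusted p = 0.0496). That call passed in 3 of 18 alternatives and in none that left out 1 library, where adjusted p ran from 0.0691 without MCD replicate 2 to 0.243 without NCD replicate 2, with 0.0773 and 0.141 without MCD and NCD replicate 1.

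The 11 enzymes that did not pass had log2 fold changes from -0.43 to 1.24 and standard errors up to 0.92. Hmgcs1, HMG-CoA synthase at the head of the pathway, measured 23.7 and 32.9 CPM on NCD and 28.0 and 25.5 on MCD, so the MCD values fell between the NCD values (-0.10 ± 0.19). Cyp51, lanosterol demethylase, measured 25.4 and 22.7 CPM against 24.4 and 24.8, and Msmo1, methylsterol monooxygenase, 47.5 and 42.5 CPM against 42.6 and 45.9. These 3 overlapped between diets, with differences of 0.10 or less in size on the log2 scale. They rested on 28 and 45, 30 and 31, and 56 and 58 NCD UMIs. Within Ly6Chi-like cells Hmgcs1 was lower, as given below. Cyp51 (-0.77 ± 0.37) and Msmo1 (-0.31 ± 0.20), chosen after their values were seen, did not pass in those cells. Fdft1, squalene synthase, measured 4.24 and 6.59 CPM on NCD and 9.08 and 10.5 on MCD (0.83 ± 0.34, adjusted p = 0.0787). Ebp, a sterol isomerase, measured 44.9 and 46.1 CPM against 57.5 and 56.1 (0.32 ± 0.14, adjusted p = 0.089). Both lay higher on MCD in each library without passing the test. Acat2, acetoacetyl-CoA thiolase, had 5 and 2 UMIs on NCD, Dhcr7, the reductase of the last step, 3 and 6, and Lss, lanosterol synthase, 0 and 2. For these the depth of the NCD libraries sets the width of the error. The squalene epoxidase Sqle (0.44 ± 0.33), the desaturase Sc5d (0.27 ± 0.23) and the dehydrogenase Nsdhl (-0.43 ± 0.30) complete the list.

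The depth behind these values was uneven. Apart from Apoe, the median member rested on 22 and 26.5 molecules with NCD against 533.5 and 490.5 with MCD. A difference in a member with few NCD molecules was therefore often not detectable at this depth.

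Of the 3 control and transport genes, the SREBP2 brake was lower and SREBP2 itself did not differ detectably. Insig1 (ENSMUSG00000045294, chromosome 5, 28071363 to 28078662), itself an SREBP2 target whose protein holds the SREBP complex in the endoplasmic reticulum, measured 80.5 and 109 CPM on NCD and 61.7 and 76.0 on MCD. The 2 diets did not overlap, and the log2 fold change was -0.47 ± 0.16 (adjusted p = 0.0454). It passed in 7 of 19 alternatives and failed without NCD replicate 1 (-0.64, adjusted p = 0.0604), NCD replicate 2 (-0.21, adjusted p = 0.519) or MCD replicate 1 (-0.37, adjusted p = 0.0625). Srebf2, which encodes SREBP2, measured 46.6 and 35.1 CPM on NCD and 43.8 and 48.7 on MCD (0.19 ± 0.17, adjusted p = 0.404), with overlapping diets. Stard4, a sterol carrier, measured 20.3 and 16.1 CPM against 13.6 and 13.9 (-0.40 ± 0.22, adjusted p = 0.181).

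Promoter sequence was read for 24 of the 31 members from the RefSeq table on GRCm38.p6, over the 250 bases before the start of transcription. No entry was held for Fdps, Fdft1, Sqle, Stard4, Abcg1, Scd1 and Scd2. The motifs searched are those of factors known for these programmes. CCAAT, the box of factor NF-Y that often accompanies SREBP sites, was found in 13 of 14 SREBP2-side genes and 4 of 7 LXR targets, against 37.5% of all 27018 genes in the table, each counted over any of its promoters. GGGCGG, the GC box of Sp1, was found in 14 of 14 and 5 of 7, against 35.4%. The sterol response core TCACNCCAC was found in 1 member, Hmgcs1, and its shorter form CACNCCAC, which the core contains, in Acat2, Hmgcs1 and Insig1, against 1.23% and 6.05% of all genes. The LXR element called DR4, a repeat of AGGTCA with a gap of 4 bases and at most 2 letters changed, was found in Dhcr7 only, against 2.96%. All motifs were searched on both strands.

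Promoters of 4 SREBP2-side genes are shown because their transcripts moved differently in the union: Mvd was higher, Idi1 and Insig1 were lower and Hmgcs1 did not pass. Capitals mark CACNCCAC and CCAAT or their reverse complements, and each sequence runs 5′ to 3′ on the strand of the gene.
Hmgcs1, chr13:119690101-119690350, plus strand: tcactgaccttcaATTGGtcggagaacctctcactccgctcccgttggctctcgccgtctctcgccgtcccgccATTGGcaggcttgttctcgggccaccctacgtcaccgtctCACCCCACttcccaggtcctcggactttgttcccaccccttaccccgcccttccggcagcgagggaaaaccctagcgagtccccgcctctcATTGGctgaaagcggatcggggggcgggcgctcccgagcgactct
Insig1, chr5:28071162-28071411, plus strand: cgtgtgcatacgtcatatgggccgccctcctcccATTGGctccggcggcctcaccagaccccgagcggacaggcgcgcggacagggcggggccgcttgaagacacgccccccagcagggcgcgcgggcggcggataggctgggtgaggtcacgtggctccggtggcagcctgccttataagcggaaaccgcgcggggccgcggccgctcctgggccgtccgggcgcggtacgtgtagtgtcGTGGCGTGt
Idi1, chr13:8885356-8885605, plus strand: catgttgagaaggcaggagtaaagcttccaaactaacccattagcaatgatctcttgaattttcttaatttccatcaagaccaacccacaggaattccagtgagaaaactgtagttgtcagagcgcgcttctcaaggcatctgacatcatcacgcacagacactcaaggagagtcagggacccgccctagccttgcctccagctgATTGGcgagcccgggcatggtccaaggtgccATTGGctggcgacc
Mvd, chr8:122443423-122443672, minus strand: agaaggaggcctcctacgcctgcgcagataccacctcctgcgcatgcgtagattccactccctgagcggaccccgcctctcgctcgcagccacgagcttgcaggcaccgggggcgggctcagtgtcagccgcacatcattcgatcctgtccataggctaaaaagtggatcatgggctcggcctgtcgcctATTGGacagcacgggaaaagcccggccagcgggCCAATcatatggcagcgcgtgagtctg
Hmgcs1 holds 3 CCAAT boxes, Idi1 and Mvd hold 2 each and Insig1 holds 1. Since 13 of 14 SREBP2-side genes hold the box, its presence in these 4 could not separate higher from lower genes. A match is a description of letters and not a measured binding site.

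Apoe was the member with the largest log2 difference and the most molecules. Apoe (ENSMUSG00000002985, chromosome 7, 19696109 to 19699188) encodes apolipoprotein E, which macrophages secrete to carry cholesterol away. It measured 1231 and 1041 CPM in the NCD libraries and 3063 and 3943 CPM in the MCD libraries of the union. The diets were far apart relative to their spread, at 1136 ± 135 and 3503 ± 622 CPM (SD, n = 2 libraries each), a log2 fold change of 1.62 ± 0.13 with an adjusted p of 8.37e-06 in the edgeR fit. The call held in 19 of 19 alternatives with log2 fold changes from 0.90 to 2.15. The lowest came from removing the trend with transcript GC content (0.91, and 0.90 with the replicate number as a block).

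Apoe is also a major hepatocyte transcript and a C1q macrophage marker, so values that bear on both are set beside it. All members, Apoe included, were left out of the marker lists when clusters were named, but not out of the main clustering. The 12 hepatocyte markers summed to 127 and 99.2 CPM on NCD and 222 and 242 CPM on MCD in the union, with 1 of 7 tested higher and 2 lower. Using only cells without a UMI of 5 hepatocyte genes left the Apoe difference at 1.59. Clustering without the 31 members and 49 further cholesterol genes also gave 1.59. That clustering changed the makeup of the union, with 101 and 132 Ly6Clo-like cells on NCD and 0 and 0 on MCD. In NK-like cells of the same libraries Apoe measured 174 and 108 CPM on NCD and 72.0 and 71.7 CPM on MCD, and in cDC2-like cells 333 and 353 CPM on NCD and 124 and 107 CPM on MCD, both on the plain CPM scale. Apoe thus was not higher on MCD in these 2 classes. In endothelial-like cells it lay higher on MCD, at 908 and 1028 CPM on NCD against 2277 and 3079, and so it did in the unnamed cluster 0, whose cells are shallow, at 77.7 and 31.4 CPM (7 and 1 UMIs) against 347 and 510. Whether RNA from outside the cells has a part in the Apoe difference was not tested.

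The share of cells with Apoe moved as the level did. After thinning every cell to 1000 UMIs, 34.3% and 31.5% of Ly6Chi-like NCD cells and 78.3% and 83.8% of Ly6Chi-like MCD cells had a UMI of Apoe (53.5% and 47.7% against 96.8% and 97.2% unthinned). Counting error alone gave exact 95% Clopper-Pearson bounds of 29.9% to 39.0% and 27.4% to 35.9% on NCD and 75.2% to 81.3% and 81.2% to 86.2% on MCD. In Ly6Clo-like cells the thinned shares were 50.9% and 65.7% on NCD and 83.1% and 87.5% on MCD. NK-like cells, which should lack the gene, gave 8.57% and 3.77% on NCD and 14% and 5.26% on MCD at median depths of 1378 and 1143 against 6394.5 and 6043 UMIs. Both monocyte classes lay above that background in all libraries. Thinning left out 6 and 28 of the NK-like NCD cells, which were shallower than 1000 UMIs, 0 and 1 of the NK-like MCD cells and at most 4 monocytes in a library.

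**Figure D2:**
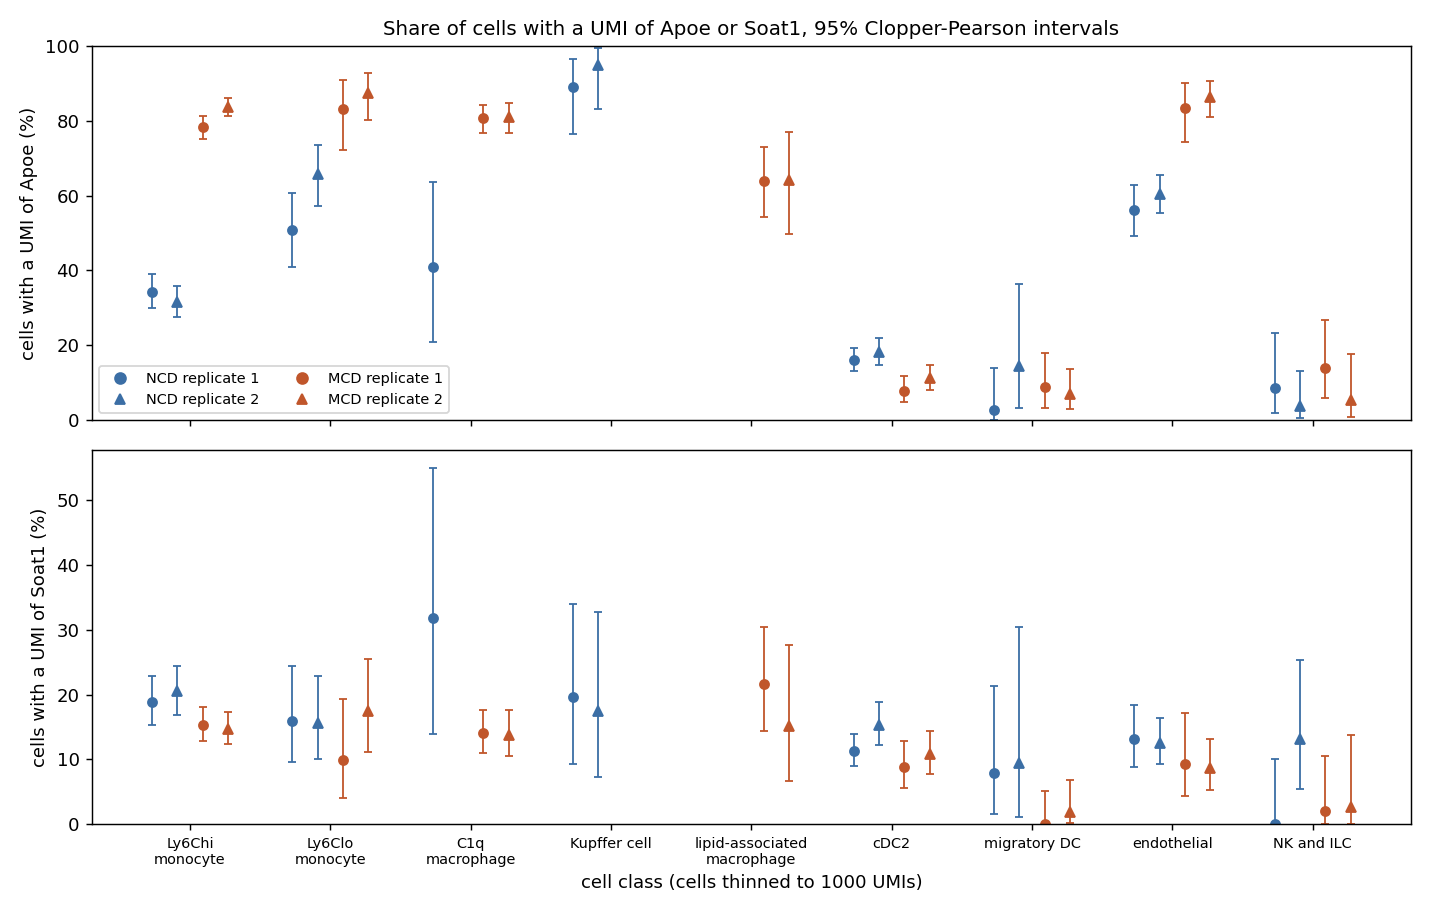
Percent of cells with a UMI of Apoe (top) or Soat1 (bottom) after thinning each cell to 1000 UMIs, by cell class and library (blue NCD, orange MCD, circles replicate 1, triangles replicate 2), with bars for 95% Clopper-Pearson intervals. Apoe lies at 34.3% and 31.5% of Ly6Chi-like cells on NCD and 78.3% and 83.8% on MCD, at no more than 14.3% of migratory DC-like and NK-like cells, and Soat1 at 18.9% and 20.5% against 15.3% and 14.7% of Ly6Chi-like cells.

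The other LXR targets split. Abcg1 (ENSMUSG00000024030, chromosome 17, 31057675 to 31117988), which exports cholesterol to HDL, measured 86.4 and 76.9 CPM on NCD and 51.5 and 49.0 CPM on MCD. It fell without overlap, by 0.70 ± 0.13 on the log2 scale (adjusted p = 0.00189), in 18 of 19 alternatives. The exception gave each class equal weight by drawing 12 cells per class and library (-0.40, adjusted p = 0.587). Abca1, the exporter to lipid-poor apolipoprotein A-I and the other classical LXR target, measured 26.3 and 28.6 CPM on NCD against 29.3 and 21.1 on MCD and overlapped (-0.12 ± 0.23). Mylip measured 44.1 and 46.1 CPM against 37.7 and 38.0 (-0.25 ± 0.14, adjusted p = 0.181).

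Of the LXR targets in lipid synthesis and remodelling, 2 were higher. Lpcat3, which builds polyunsaturated phospholipids, measured 7.63 and 10.3 CPM on NCD and 18.9 and 16.3 CPM on MCD (0.96 ± 0.27, adjusted p = 0.0173). Srebf1, which encodes the fatty acid synthesis factor SREBP1, measured 11 and 16.8 CPM against 22.8 and 22.5 CPM (0.68 ± 0.23, adjusted p = 0.0372). Neither overlapped between diets, but Lpcat3 passed in 10 of 18 alternatives and Srebf1 in 11 of 18. Lpcat3 failed without NCD replicate 1 (0.81, adjusted p = 0.115) or 2 (1.23, adjusted p = 0.0656). Srebf1 failed without NCD replicate 1 (0.45, adjusted p = 0.244), MCD replicate 1 (0.63, adjusted p = 0.0597) or MCD replicate 2 (0.65, adjusted p = 0.056), and after thinning all libraries to 1 depth (0.07, adjusted p = 0.898). Scd2, a fatty acid desaturase, measured 27.1 and 23.4 CPM against 32.9 and 28.8 (0.29 ± 0.18), and its paralogue Scd1 had 2 and 4 UMIs on NCD and 44 and 22 on MCD (-0.64 ± 0.73). Pltp, the phospholipid transfer protein, measured 57.6 and 45.4 CPM against 40.8 and 38.6 (-0.37 ± 0.15, adjusted p = 0.0816). None of these 3 passed.

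Nr1h2 (ENSMUSG00000060601, chromosome 7, 44549616 to 44553951), the broadly expressed liver X receptor beta, measured 34.7 and 28.6 CPM on NCD and 62.3 and 62.2 CPM on MCD. The groups did not overlap and the log2 fold change was 0.98 ± 0.15 (adjusted p = 0.000724), called in 16 of 19 alternatives. The difference was 0.09 (adjusted p = 0.701) relative to genes of like transcript GC content, that is, with the GC trend removed. That trend was removed only in the union, so the calls of Nr1h2 in the monocyte classes and over all cells did not face this check.

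The 2 genes of ester turnover moved in opposite directions. Soat1 (ENSMUSG00000026600, chromosome 1, 156424525 to 156474331), which esterifies cholesterol for storage, measured 246 and 265 CPM on NCD and 148 and 143 CPM on MCD. The 2 MCD libraries lay close together and far below the NCD pair (-0.81 ± 0.10, adjusted p = 0.000153). Nceh1 (ENSMUSG00000027698, chromosome 3, 27182965 to 27284608), a hydrolase of cholesteryl esters, measured 16.9 and 19.0 CPM on NCD and 37.6 and 35.5 CPM on MCD. It was higher in both MCD libraries (1.02 ± 0.18, adjusted p = 0.00162). Nceh1 was called in 18 of 18 alternatives and Soat1 in 18 of 19, the exception again being equal weight to each class (-0.28, adjusted p = 0.607).

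In Ly6Chi-like monocytes, the classical inflammatory type, 3 of 17 tested genes on the SREBP2 side were lower and 2 higher. These cells came from cluster 3 on NCD and from clusters 2 and 7 on MCD, so the diets also differed by cluster. Of 28 members tested 5 were higher and 5 lower, 17.9% each, against 16.0% and 15.3% of all 9957 genes tested there, so the share called was again near the background. Lower were Hmgcs1, Insig1, Stard4, Abcg1 and Soat1, and higher were Mvd, Fdps, Apoe, Nr1h2 and Nceh1. The median of the 17 tested genes on the SREBP2 side was -0.06 and that of the 8 LXR targets 0.02, against 0.05 for all genes, and with library totals they were 0.41, 0.50 and 0.54. These medians moved when 1 library was left out. The SREBP2 side was at -0.78 without MCD replicate 2 and 0.22 without NCD replicate 2. The LXR targets ran from -0.18 without MCD replicate 1 to 0.17 without NCD replicate 1. The genes tested changed as well, to 7469 and 7572 without MCD replicate 1 and 2 and 10921 and 10948 without NCD replicate 1 and 2.

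Insig1 in these cells measured 88.6 and 123 CPM on NCD and 45.1 and 68.4 CPM on MCD (-0.92 ± 0.22, adjusted p = 0.00766). Stard4 measured 17.2 and 18.8 CPM against 7.70 and 10.8 (-0.97 ± 0.32, adjusted p = 0.0369), and Hmgcs1 25.1 and 35.6 CPM against 15.4 and 21 (-0.76 ± 0.27, adjusted p = 0.0476). All 3 lay lower in both MCD libraries, without overlap. Idi1 showed a like size, 25.1 and 24.1 CPM against 9.73 and 16.4, but did not pass (-0.91 ± 0.34, adjusted p = 0.0582). Hmgcs1 and Stard4 each passed in 4 of 12 alternatives and Insig1 in 9 of 12. With library totals Insig1 was -0.44 (adjusted p = 0.104). Leaving out NCD replicate 1 or 2 ended the calls of Insig1 (adjusted p = 0.0721 and 0.294), Hmgcs1 (0.128 and 0.515) and Stard4 (0.172 and 0.281), and leaving out MCD replicate 1 ended those of Hmgcs1 (0.086) and Stard4 (0.0777).

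Fdps and Mvd were nonetheless higher in the same cells. Fdps measured 9.26 and 7.33 CPM on NCD against 15.2 and 18.4 on MCD (1.03 ± 0.34, adjusted p = 0.0353), and Mvd 6.61 and 11.5 CPM against 20.8 and 16.4 (0.99 ± 0.35, adjusted p = 0.0456). Neither pair overlapped. Without NCD replicate 1 or 2 the adjusted p was 0.123 and 0.267 for Fdps and 0.288 and 0.120 for Mvd; it was 0.0932 for Fdps without MCD replicate 2 and 0.109 for Mvd without MCD replicate 1. Of the other genes called in the union, Mvk (0.67 ± 0.65), Lpcat3 (0.91 ± 0.34, adjusted p = 0.0569) and Srebf1 (0.65 ± 0.31) did not pass here.

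Apoe differed most in the Ly6Chi-like cells, at 728 and 547 CPM on NCD and 2699 and 3268 CPM on MCD (2.23 ± 0.15, adjusted p = 6.04e-07), in 12 of 12 alternatives. Kupffer cell markers summed to 5.40 and 10.9 CPM on NCD and 3.76 and 5.62 CPM on MCD in these cells, too few counts for any of the 8 to be tested. The 11 markers of lipid-associated macrophages summed to 1034 and 1067 CPM on NCD and 3427 and 3512 CPM on MCD, with 6 of 11 called higher and none lower. The 12 hepatocyte markers summed to 74.5 and 76.5 CPM on NCD and 267 and 263 CPM on MCD, with 1 of 3 tested called higher, and cells with no hepatocyte UMI gave an Apoe difference of 2.21. The part of the lipid-associated markers in the Apoe difference was not tested. Abcg1 measured 54.2 and 52.3 CPM against 30.4 and 34.1 (-0.72 ± 0.17, adjusted p = 0.00772), Soat1 273 and 291 CPM against 134 and 140 (-1.04 ± 0.12, adjusted p = 3.37e-05). Nr1h2 measured 41.0 and 32.4 CPM against 60.7 and 58.8 (0.72 ± 0.18, adjusted p = 0.01) and Nceh1 15.9 and 15.7 CPM against 28.8 and 29.9 (0.89 ± 0.24, adjusted p = 0.0126). These 4 repeated their union direction, but Abcg1 lost its call without NCD replicate 1 or 2 (adjusted p = 0.0855 and 0.0837), Nceh1 likewise (0.0721 and 0.102) and Nr1h2 without NCD replicate 2 (0.130).

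Ly6Clo-like monocytes, which patrol vessel walls, had fewer cells and only 18 members could be tested. They came from cluster 9 on NCD and cluster 11 on MCD. Higher were Apoe, Fdps and Nr1h2 and lower Idi1, Abcg1 and Mylip, 16.7% of the members tested each way, against 12.9% and 11.5% of 5311 genes. Apoe measured 1184 and 1352 CPM on NCD and 3705 and 4374 CPM on MCD (1.67 ± 0.11, adjusted p = 9.27e-09), far apart between diets. Nr1h2 measured 39.3 and 24.7 CPM against 88.2 and 84.6 (1.47 ± 0.35, adjusted p = 0.00673), and Fdps 5.61 and 8.24 CPM against 24.8 and 32.1 (2.02 ± 0.66, adjusted p = 0.0374). Fdps rested on 3 NCD molecules against 65 on MCD, a plain ratio of 5.08 with a counting interval of 1.66 to 25.3.

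Idi1 in these cells measured 44.9 and 70.1 CPM on NCD and 19.3 and 25.2 CPM on MCD (-1.35 ± 0.38, adjusted p = 0.0186). Mylip measured 107 and 86.6 CPM against 38.6 and 58.0 (-0.92 ± 0.31, adjusted p = 0.0396), and Abcg1 180 and 128 CPM against 95 and 88.0 (-0.73 ± 0.24, adjusted p = 0.0343). None of these overlapped between diets, yet each passed in only 4 alternatives, of 9 for Idi1 and of 10 for the others. Leaving out NCD replicate 1 ended the calls of Fdps (adjusted p = 0.129), Abcg1 (0.283) and Mylip (0.140). Leaving out NCD replicate 2 ended those of Fdps (0.130), Idi1 (0.330) and Nr1h2 (0.113). Leaving out MCD replicate 1 ended those of Idi1 (0.0976) and Mylip (0.0714), and leaving out MCD replicate 2 that of Abcg1 (0.112). Of the genes called in the union, Soat1 lay lower without passing (224 and 218 against 157 and 151 CPM, adjusted p = 0.0539), and Insig1 (-0.39 ± 0.32), Nceh1 (-0.40 ± 0.57) and Lpcat3 (0.48 ± 0.55) did not pass. Mvd, Mvk and Srebf1 were under the filter.

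The diet difference was compared directly between the 2 monocyte classes by a class by diet term with the library as a block. Of 23 members that entered this fit Apoe alone was called, against 3.05% of 7699 genes. The rise of Apoe was smaller in Ly6Clo-like cells by 0.54 ± 0.14 on the log2 scale (-0.54, adjusted p = 0.0336), and their NCD level was already higher. That call ended on leaving out NCD replicate 2 (-0.11, adjusted p = 0.749) or MCD replicate 2 (-0.52, adjusted p = 0.0639) and on thinning. For Hmgcs1 (1.43 ± 0.53), Msmo1 (1.0 ± 0.39) and Soat1 (0.55 ± 0.19) the difference between classes did not pass, with adjusted p of 0.179, 0.205 and 0.160.

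Across cell classes, Fdps and Hmgcs1 had their highest levels in dendritic cells on MCD, and Apoe its highest in Kupffer-like cells of NCD replicate 2. These levels are plain CPM, described without a test because the clusters were made from the same cells, and on this scale the median gene of the union lies higher on MCD by the 0.38 given above. Fdps measured 57.2 and 41.2 CPM in migratory DC-like cells on NCD and 135 and 124 CPM on MCD, from 5 and 2 UMIs on NCD. In cDC2-like cells it measured 22.5 and 17.4 CPM on NCD and 129 and 119 CPM on MCD, against 18.2 and 21.4 CPM in Ly6Chi-like cells on MCD. The cDC2-like cells came from cluster 1 on NCD and mainly from cluster 6 on MCD, and the name is unstable on NCD. At resolution 0.5 a cluster with 1227 NCD cells took the C1q macrophage name, and no cluster took the Kupffer name. Its top 10 genes held Retnla, C1qc and C1qb beside H2-Ab1, H2-Aa and Cd74. At resolution 1 the top 10 genes of cluster 1 held no C1q gene. Those of the Kupffer-like cluster, with 88 NCD cells, held C1qc, C1qa, C1qb and Retnla. The coarser clustering left 10 and 13 NCD cells as cDC2-like and placed the others in the union.

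Other SREBP2-side genes also lay higher on MCD in the cDC2-like cells. Hmgcs1 in cDC2-like cells measured 23.0 and 28.2 CPM on NCD and 93.1 and 62.3 CPM on MCD, Sqle 13.3 and 10.1 CPM against 44.0 and 40.1, and Mvd 5.10 and 9.39 CPM against 37.4 and 23.1. Srebf2 measured 62.8 and 65.1 CPM against 111 and 117 there. In each case both MCD libraries lay above both NCD libraries. Insig1 in the cDC2-like cells measured 74.5 and 66.4 CPM on NCD and 76.4 and 81.3 CPM on MCD, a smaller gap without overlap. In migratory DC-like cells Sqle measured 57.2 and 20.6 CPM on NCD, from 5 and 1 UMIs, against 48.3 and 40.7 on MCD, and Cyp51 114 and 103 CPM against 126 and 106, so both overlapped.

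Export and storage genes had another order over the classes. Apoe on plain CPM measured 4656 and 5767 in Kupffer-like cells of NCD, 4062 and 5571 in C1q macrophage-like cells of MCD and 2266 and 2749 in lipid-associated macrophage-like cells of MCD. Kupffer-like cells on NCD overlapped the C1q macrophage-like cells on MCD, Ly6Clo-like cells on MCD followed at 3988 and 4605 CPM, and in the 25 C1q macrophage-like cells of NCD replicate 1 Apoe was 1486 CPM. Abca1 measured 75.9 and 207 CPM in Kupffer-like cells and 126 and 94.0 CPM in lipid-associated macrophage-like cells, against 11.9 and 5.47 CPM in Ly6Chi-like cells on NCD and 13.4 and 10.6 CPM on MCD. Scd2 was 124 and 105 CPM and Nceh1 86.5 and 98.5 CPM in the lipid-associated class, the highest of any named class with at least 20 cells for both genes. Soat1 was 249 and 186 CPM there and 223 and 253 CPM in Ly6Chi-like cells on NCD, which overlap.

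Mylip and Scd1 stood out in cells outside the union. Mylip measured 358 and 402 CPM on NCD and 474 and 333 CPM on MCD in endothelial-like cells, against 22.7 and 23.7 CPM on NCD and 37.4 and 28.6 CPM on MCD in Ly6Chi-like cells. Scd1 measured 754 and 651 CPM in the 23 and 28 B cell-like cells of the MCD libraries, from 71 and 92 UMIs. Among the named classes the next highest was 21.8 CPM, in Kupffer-like cells of NCD replicate 2, from 2 UMIs. Lipid-associated macrophage-like cells had 25 UMIs of Scd1 in MCD replicate 1 (14 CPM) and 1 in MCD replicate 2, and migratory DC-like cells 7 and 9 on MCD (6.76 and 6.01 CPM).

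**Figure D3:**
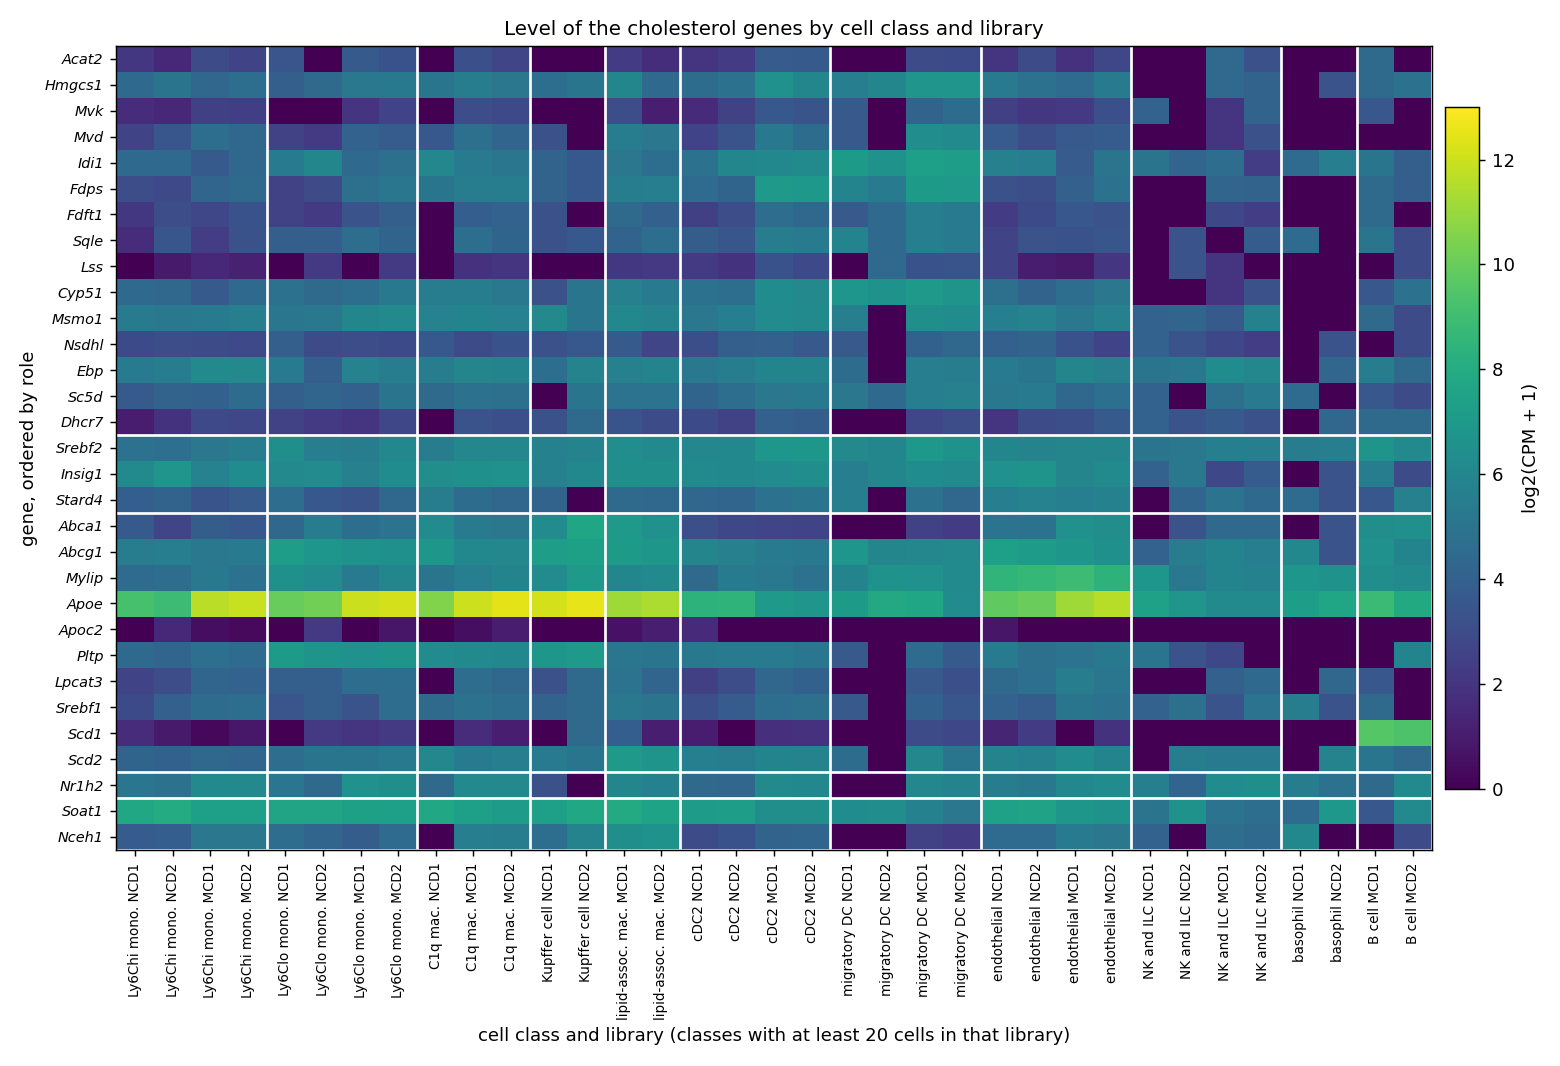
Heat map of log2 of CPM plus 1 for the 31 cholesterol genes (rows, ordered by role) by cell class and library (columns; only classes with at least 20 cells in that library). The Apoe row is bright in monocyte, macrophage and endothelial columns, the Scd1 row is brightest in B cell-like columns, and the Fdps and Hmgcs1 rows are brightest in migratory DC-like and cDC2-like cells on MCD.

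Summed over all retained cells, with no clustering involved, 9 of 18 genes on the SREBP2 side were higher and 2 lower. Of 31 members tested 14 were higher and 5 lower, 45.2% and 16.1%, against 26.1% and 22.9% of 12740 genes. The 9 higher were enzymes (Acat2, Hmgcs1, Mvk, Mvd, Fdps, Fdft1, Sqle, Cyp51, Ebp) and Nsdhl and Stard4 were lower, with a median of 0.51 against 0.02 for all genes. The 8 cDC2 markers summed to 3390 and 2792 CPM on NCD and 8578 and 8896 on MCD (3 called higher, 2 lower). In the union, which leaves out the cDC2-like cells, they also summed to more on MCD, at 6268 and 5830 CPM against 1589 and 991. Their sum therefore does not follow cDC2-like cells alone. The 7 migratory DC markers summed to 367 and 251 CPM against 518 and 605 (4 higher, none lower). Yet cDC2-like cells were fewer on MCD, at 653 and 503 of 1735 and 1786 retained NCD cells against 261 and 372 of 2950 and 3138. Migratory DC-like cells numbered 38 and 21 on NCD against 69 and 103 on MCD. The part of dendritic cells in the enzymes' difference was not tested. Fdps rose most, from 16.0 and 9.98 to 42.7 and 46.4 CPM (1.79 ± 0.21, adjusted p = 0.00124). Fdft1 measured 4.39 and 6.33 CPM against 12.6 and 13.2 (1.26 ± 0.21, adjusted p = 0.00385), and Sqle 9.87 and 9.60 CPM against 17.3 and 17.4 (0.84 ± 0.14, adjusted p = 0.00428). Removal of the GC trend, which ended the union call of Mvd, was not run over all cells. The calls of Mvd, Fdps, Fdft1, Sqle and Ebp held in 9 of 9 alternatives that were run. The other 4 enzymes lost theirs when 1 library was left out, Mvk without NCD replicate 2, MCD replicate 1 or MCD replicate 2 (adjusted p = 0.0616, 0.0613 and 0.0756), Cyp51 without NCD replicate 2 or MCD replicate 2 (0.0754 and 0.0576), Hmgcs1 without NCD replicate 2 or MCD replicate 1 (0.0665 and 0.116) and Acat2 without NCD replicate 1 or MCD replicate 1 (0.0766 and 0.104).

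Of the LXR targets over all cells, Apoe, Lpcat3 and Srebf1 were higher and Abcg1 and Mylip lower. Mylip fell from 131 and 172 to 57.6 and 61.5 CPM (-1.35 ± 0.14, adjusted p = 0.000979), while endothelial-like cells, where it was highest, made up 221 and 381 of the retained NCD cells and 103 and 227 of the larger MCD samples. Srebf1 went from 11.8 and 13.6 to 23.7 and 23.0 CPM (0.87 ± 0.14, adjusted p = 0.00363). Fewer cells of a type and less RNA per cell cannot be told apart in these sums. Nsdhl lost its call without NCD replicate 2, MCD replicate 1 or MCD replicate 2 (adjusted p = 0.157, 0.0917 and 0.119), Stard4 without NCD replicate 2 or MCD replicate 1 (0.0562 and 0.061), Lpcat3 without NCD replicate 1 or 2 or MCD replicate 1 (0.0907, 0.0518 and 0.0854) and Soat1 without MCD replicate 2 (0.0634).

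The wider pathway was described by 49 further genes in 6 lists, from the union fit. Of 44 tested 15 were higher and 4 lower (34.1% and 9.09%), with a median of 0.25, beside 20% and 17.5% of all genes and a median of 0.05. In Ly6Chi-like cells 9 of 42 were higher and 3 lower (21.4% and 7.14%), beside 16.0% and 15.3% of all genes. In Ly6Clo-like cells 8 of 30 were higher and 3 lower (26.7% and 10%), beside 12.9% and 11.5%. The lysosomal egress and sterol transfer list had 5 of 9 higher and none lower in the union. It had 2 of 9 higher and none lower in Ly6Chi-like cells, and 3 of 9 higher and 1 lower in Ly6Clo-like cells. In the union Npc2, which binds cholesterol in the lysosome, measured 808 and 735 CPM on NCD against 1006 and 1169 on MCD (0.50 ± 0.10, adjusted p = 0.00318). Lipa, the lysosomal acid lipase that frees cholesterol from ingested esters, measured 117 and 113 CPM against 198 and 163 (0.65 ± 0.13, adjusted p = 0.00295). Neither overlapped between diets. Stard3 (1.55) and Gramd1a (1.02), chosen after their values were seen, were also higher.

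Uptake genes were mixed, with 3 of 7 tested higher and 1 lower. Lrp1, an endocytic receptor for APOE-bearing particles, measured 187 and 168 CPM on NCD and 338 and 292 CPM on MCD (0.83 ± 0.11, adjusted p = 0.000335), and Msr1, a scavenger receptor, 94.9 and 100.3 CPM against 107 and 99.5 (0.08 ± 0.12). Of LXR partners and oxysterol enzymes 4 of 5 tested were higher and 1 lower in the union. In Ly6Chi-like cells 2 of 5 were higher and none lower, and in Ly6Clo-like cells 1 of 4 was higher and none lower. The values that follow are from the union. Ncor1, a corepressor, measured 178 and 199.9 CPM against 138 and 152 (-0.39 ± 0.11, adjusted p = 0.0203), and Cyp27a1, a sterol hydroxylase, 24.6 and 20.5 CPM against 41.0 and 50 (1.02 ± 0.20, adjusted p = 0.00268). Chosen after their values were seen, Scarb1 (0.96), Lrpap1 (1.12), Rxra (1.01) and Rxrb (0.80) were higher and Cd36, a scavenger receptor, lower (-0.93).

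The remaining lists had few calls. Other synthesis genes had 2 of 9 higher, Pmvk (1.65) and Acat1 (0.53), named after their values were seen, and 1 lower. Acly, which makes cytosolic acetyl-CoA, measured 101 and 97.4 CPM on NCD and 59.0 and 62.0 CPM on MCD (-0.71 ± 0.12, adjusted p = 0.00106), and Lbr, a sterol reductase of the nuclear envelope, 114 and 130 CPM against 78.1 and 106 (-0.41 ± 0.16, adjusted p = 0.0714). SREBP processing had 1 of 8 higher, Scap (1.03), also named after its value was seen, and 1 lower, with Erlin1 at 37.3 and 44.7 CPM against 26.7 and 30.4 (-0.53 ± 0.17, adjusted p = 0.0296). In the SREBP1 list of fatty acid synthesis none of 6 tested passed in edgeR's test, 0 had an unadjusted p under 0.05 and DESeq2 called 0, with Elovl5 at 57.6 and 56.4 CPM against 47.9 and 53.2 and Acaca at 7.63 and 10.3 CPM against 8.85 and 9.77, although Srebf1 itself was higher.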

How the data were processed

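Sorted liver cells of 4 droplet libraries, 2 per diet, were analysed. The authors deposited UMI counts per gene and cell barcode, made with Cell Ranger 3.0.2 per the file headers, on build mm10 per the submitters' processing notes. The members and gene lists were chosen with earlier results of these data known. All values named follow 1 rule: every member in the union, members called in a monocyte class or in the union for that class, and the 2 most abundant genes of each further list, with any other named as chosen later; 1 gene this rule names is not reported here.

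Cells needed 200 or more detected genes and no more than 10% of UMIs from mitochondrial genes. They were clustered with scanpy 1.11.5 and leidenalg 0.10.2 (2000 variable genes, 30 components, resolution 1) and named from marker lists, so class names are rebuilt and doublets were not called. UMIs were summed per library and class and tested between diets with edgeR 4.0.16 (TMM scaling, filterByExpr, quasi-likelihood F test) in R 4.3.3, adjusted by Benjamini-Hochberg over all genes tested; the fit was first tested on simulated data. Shares came from cells thinned to 1000 UMIs, and intervals cover counting error only. With 2 libraries per diet an exact two-sided permutation test cannot go below p = 0.333. Alternatives included DESeq2 1.42.0, library totals, no filter, thinning, each library left out, a replicate block, other clusterings and, in the union only, a GC trend. Diet and library preparation cannot be told apart.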

Additional observations from a re-analysis of the deposited data

Results flagged for a closer look

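The diet difference of Apoe was not the same in the 2 monocyte classes: the class by diet term was -0.54 on the log2 scale (adjusted p = 0.0336, edgeR), meaning a smaller difference in Ly6Clo-like than in Ly6Chi-like cells. It was lost without NCD replicate 2 (-0.11), without MCD replicate 2 (-0.52) and after thinning (-0.46, adjusted p = 0.0661).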

How the results depend on the processing

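Apoe, Fdps and Nceh1 kept direction and call in the union under every alternative that could test them. In the union, the SREBP2 side had 3 genes higher and 2 lower. The number higher was 8 with library totals, 1 with no filter, 0 with equal weight to each class and 1 with the GC trend removed, with or without the replicate block. The number lower was 0 with library totals, DESeq2, no filter, 20% mitochondrial UMIs allowed, clustering without the members, the GC trend removed or the Cxcl10 cluster added; 1 with thinning, the replicate block, no hepatocyte UMI, equal weight, or the GC trend removed with the replicate block; and 4 at resolution 0.5. LXR targets higher were 1 in place of 3 with DESeq2, no filter, thinning, equal weight or the monocyte classes only. LXR targets lower were, in place of 1, 4 with 20% mitochondrial UMIs allowed, 0 with equal weight, 3 at resolution 0.5 and 2 with clustering without the members, the GC trend removed (with or without the replicate block), monocytes only or the Cxcl10 cluster. Of all genes 4159 were called, against 2313 with no filter and 419 with equal weight. The monocyte-only and Cxcl10 settings were chosen after seeing the data.

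In Ly6Chi-like cells members higher were 9 with library totals, 1 with DESeq2 and 2 with thinning, members lower 1 with library totals and 3 with DESeq2 or clustering without the members, each in place of 5, and DESeq2 called 2025 genes in place of 3114. In Ly6Clo-like cells DESeq2 gave 1 member higher in place of 3; members lower were 0 in place of 3 with library totals, DESeq2, no filter or thinning; all genes called were 492 with DESeq2, 534 with no filter and 861 with thinning in place of 1296. Over all cells the SREBP2 side had 1 lower in place of 2 with library totals, DESeq2, no filter or thinning. The class by diet term called 0 members after thinning.

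With 1 library left out (the lone sample of a diet is then assumed to vary like the other diet), the union called 2183 to 3722 genes, 1 to 2 SREBP2-side genes higher and 0 to 1 lower, and 1 to 2 LXR targets higher and 1 to 2 lower. Ly6Chi-like cells gave 1451 to 2820 genes, 1 to 4 members higher and 1 to 7 lower. Ly6Clo-like cells gave 904 to 1283 genes and 1 to 2 members each way. All cells gave 4393 to 5263 genes, 6 to 8 SREBP2-side genes higher and 0 to 2 lower, and 2 to 3 LXR targets higher and 2 lower. The class by diet term called 0 to 1. The causes were not tested. Reversed were Srebf2 with the GC trend removed and the replicate block (-0.48, from 0.19) and Scd2 at resolution 0.5 (-0.48, from 0.29). The union at resolution 0.5 took in most NCD cDC2-like cells but not those of MCD, so its values compare other cells than the main fit. Same-numbered libraries deviated with a correlation of -0.024, which with 2 libraries per diet cannot decide whether the numbers pair them. The replicate block called 2405 genes higher and 2051 lower in the union, with 7 members higher and 3 lower. The C1q comparison, and Ly6Clo-like cells with 20% mitochondrial UMIs or clustering without the members, were not run. The NCD libraries' depth limits members with few molecules.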
